A study of Mus musculus with 9 samples.

Results

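The interferon-stimulated genes are the transcripts that cells switch on when a type I, type II or type III interferon binds its receptor. A list of 42 of them was followed across 9 mouse B cell RNA-seq libraries, and all 42 are among the 22178 genes of the deposited expression table. Of these, 41 reached a mean of at least 1 TPM (transcript abundance corrected for gene length and scaled to a fixed total per library) over the 9 libraries and were tested, as part of the 11099 genes that did so. Gbp3 did not reach it. The members were taken from a named list, which was chosen with earlier results of these data known. The series compared 3 groups of 3 libraries each. B2 cells, the conventional B cells, came from spleen and carry the strain label VH12B1-8/Vk4. B1 cells, the innate-like B cells of the body cavities, and B2B1 cells came from the peritoneal cavity and carry the strain label B1-8VH12/Vk4. B2B1 cells, which the series title calls B2toB1, had their B cell receptor switched by induction about 30 days before isolation. All 3 groups are of the backcrossed C57BL/6 background. Tissue and strain label change together with cell type in both comparisons with B2 and cannot be told apart from it, whereas B2B1 and B1 share tissue and strain label. The labels do not say whether replicate libraries stem from different animals, and the p-values therefore measure the spread between these libraries. The Y-linked Ddx3y (values below) was present in some libraries of B2 and of B2B1 and nearly absent in others. The libraries of neither of those groups can therefore all stem from a single animal. In B1 the spread may be technical, and how much of it is technical in any group is unknown.

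Type I interferon signals through the receptor chains Ifnar1 and Ifnar2 to a complex that contains Stat2 and Irf9 and binds the interferon-stimulated response element (ISRE) in gene promoters. Type II interferon signals through Ifngr1 and Ifngr2 and acts at the gamma-activated site (GAS), and its best known targets include the guanylate-binding and immunity-related GTPases. Irf7 is itself induced and then drives further interferon production, so the system feeds back on itself. In resting B cells a basal level of many of these transcripts is maintained without infection.

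The promoters are shown first, because the ISRE is the sequence that many of these genes share. RefSeq promoters (build GRCm38.p6, 250 bases before to 50 after the start of a gene) were at hand for 32 of the 42 members, and the others were not analysed here: Dhx58, Zbp1, Usp18, Oas2, Mx1, Mx2, Rtp4, Parp9, Parp14 and Gbp10. The ISRE was searched as GAAA, 2 bases of any kind and GAAA, on both strands, and was found in 18 of the 32 (56.2%), against 3.99% of the 27025 promoters in the table and 3.89% of the 8328 tested genes that had one. The GAS, searched as TTCNNNGAA, which is its own reverse complement and whose letters can overlap those of an ISRE match, was found in 9 of the 32 (28.1%), against 9.55% of all promoters. The 8 windows below come from members in which the ISRE was found. Each lies before the RefSeq start of its gene, is written 5′ to 3′ on the strand of the gene, and has the ISRE matches in capitals; a match on the other strand reads TTTC, 2 bases and TTTC.
Isg15 (chr4:156200830-156200929, minus strand): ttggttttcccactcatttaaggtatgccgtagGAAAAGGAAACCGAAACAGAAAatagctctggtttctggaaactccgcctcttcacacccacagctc
Ifit1 (chr19:34640759-34640858, plus strand): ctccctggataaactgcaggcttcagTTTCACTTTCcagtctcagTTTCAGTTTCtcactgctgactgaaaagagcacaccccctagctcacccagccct
Ifit3 (chr19:34583362-34583461, plus strand): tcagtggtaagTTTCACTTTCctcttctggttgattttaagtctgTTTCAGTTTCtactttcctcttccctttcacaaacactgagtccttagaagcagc
Oas1a (chr5:120907526-120907584, minus strand): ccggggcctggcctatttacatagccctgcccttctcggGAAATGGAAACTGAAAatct
Bst2 (chr8:71537542-71537641, minus strand): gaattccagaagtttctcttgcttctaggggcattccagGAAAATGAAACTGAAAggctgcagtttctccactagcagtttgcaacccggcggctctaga
Gbp7 (chr3:142530238-142530335, plus strand): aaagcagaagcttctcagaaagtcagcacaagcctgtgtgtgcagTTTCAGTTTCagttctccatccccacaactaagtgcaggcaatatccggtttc
Igtp (chr11:58199477-58199555, plus strand): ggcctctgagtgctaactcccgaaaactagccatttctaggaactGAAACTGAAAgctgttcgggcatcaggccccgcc
Irgm2 (chr11:58214868-58214967, plus strand): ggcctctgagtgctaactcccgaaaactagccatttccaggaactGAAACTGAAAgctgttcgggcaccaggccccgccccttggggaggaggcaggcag
The windows of Isg15, Oas1a and Bst2 hold overlapping matches, and the pair of matches in Ifit1 and in Ifit3 lie apart from each other. The windows of Igtp and Irgm2, neighbours on chromosome 11, differ at 2 of 79 compared bases. Of the 12 members with a promoter entry that were called lower in B1 than in B2 (below), 4 held the ISRE (33.3%), and of the 19 other tested members 13 did (68.4%). Irf7 and Oasl1, among those called lower, held no match. Usp18, Oas2, Mx2, Rtp4 and Parp14 were also called lower but had no promoter entry, which limits this contrast. With matches only in the 100 bases before the start, the shares lay closer together, at 3 of 12 (25%) and 7 of 19 (36.8%). The split uses the calls with all 9 libraries, and further members were called lower without B2B1 library 1 (below). A match describes letters only, not binding.

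The libraries were similar in the number of genes at 1 TPM or more, 10711 to 10945. The genes of the deposited table did not sum to the same total in each library. The sums ran from 894515 TPM in B1 library 3 to 943043 TPM in B2B1 library 1, and the main fit did not rescale them. B cell markers (8 of 8 in the table) summed to 9022 to 11257 TPM in every library. B2B1 library 1 stood apart for the interferon-stimulated genes. It was the highest of its group for 35 of the 41 tested members, against 40.99% of all tested genes, and its ratio to the mean of B2B1 libraries 2 and 3 had a median of 1.94 over members, against 1.02 over all tested genes. That ratio passed 2 for 20 of the 41 members (48.8%), against 2.48% of all tested genes. The ratio ran from 2.21 to 9.17 in the Isg15 system, from 3.82 to 8.15 in the Ifit family and from 1.90 to 4.69 in the Oas family, and had a median of 0.97 over the 7 tested GTPases. B1 library 2 was the highest of its group for 30 members, against 41.9% of all tested genes, but its ratio to the mean of the other two passed 2 for 4 members: Gbp10 (3.00), Gbp7 (2.88), Gbp2 (2.29) and Oas1a (2.09).

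The same libraries were read for RNA of other cell types. Macrophage markers (10 of 11 in the table) summed to 1.71 to 2.81 TPM in B2, to 266, 68.7 and 97.6 TPM in B2B1 libraries 1, 2 and 3, and to 21.5 to 50.5 TPM in B1. Much of the B2B1 library 1 sum was Lyz2, at 181, 22.3 and 44.5 TPM in the 3 B2B1 libraries, and no macrophage marker was at 0 in every library. The plasmacytoid dendritic cell markers Siglech and Cox6a2 were listed at 0 in all 9 libraries, and the sum of that list (7.55 to 12.1 TPM in B2, 24.0 to 36.7 in B2B1, 31.7 to 49.1 in B1) was mainly Ccr9 in the peritoneal groups and mainly Pacsin1 and Lair1 in B2. T and NK cell markers summed to 4.23 to 19.0 TPM and neutrophil markers to at most 1.302 TPM. The Y-linked Ddx3y was at 56.9 and 61.7 TPM in B2B1 libraries 1 and 2 and at 75.3 TPM in B2 library 2, and below 0.33 TPM in the 6 others. The part of macrophage RNA and of sex in the results was not tested beyond a fit with sex as a covariate. Calls and signs of members that change without B2B1 library 1 are named below, while those of the other gene lists are not all named. Without B2B1 library 1 the B2B1 group has 2 libraries.

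**Figure D1:**
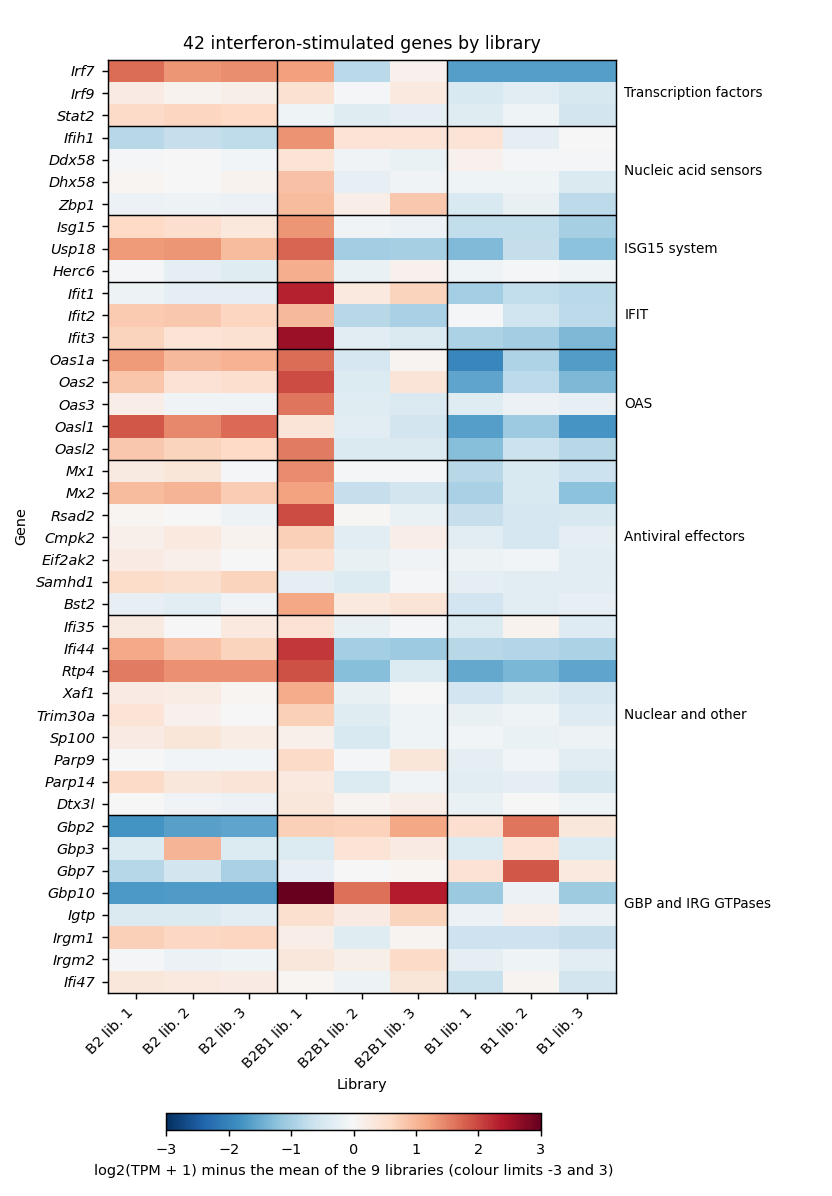
Level of each interferon-stimulated gene in the 9 libraries, as log2(TPM + 1) minus the mean of the gene over all libraries; rows are genes grouped by role, columns are libraries, and red is above and blue below the mean. B2B1 library 1 is the highest of its group for 35 of 41 tested genes.

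The first comparison asked how natural B1 cells differ from conventional B2 cells. Most interferon-stimulated genes had lower levels in peritoneal B1 than in splenic B2, led by the transcription factor Irf7, the oligoadenylate synthetase-like gene Oasl1, Rtp4, Oas1a and Usp18. The GTPase genes Gbp2, Gbp7 and Igtp and the RNA sensor Ifih1 were higher. The difference was below 0 for 34 of the 41 members. The share of all tested genes below 0 is not given here, and their median was also below 0. In limma on log2(TPM + 1), with Benjamini-Hochberg adjustment over all 11099 tested genes and a call at adjusted p under 0.05, 17 of 41 members were called lower (41.5%) and 4 higher (9.76%), with 20 called neither way. Over all tested genes 33.9% were called lower and 18% higher. The median log2 difference was −0.59 over the 41 members and −0.14 over all tested genes. In the 3 B1 and 3 B2 libraries, 30 of the 41 members did not overlap and were lower in B1, and 5 did not overlap and were higher, against 39.8% and 21.9% of all tested genes. In bulk libraries fewer cells of a type and less RNA per cell cannot be told apart.

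The count of lower calls depended on B2B1 library 1, which enters this comparison through the shared estimate of spread. Without it, with the same differences, 28 members were lower and 4 higher, against 34.1% and 18.4% of all tested genes; with the 6 B1 and B2 libraries alone, 27 were lower and 5 higher, against 32.9% and 17.9%. The 11 members called lower without that library and not with it were Dhx58, Ifit1, Ifit3, Mx1, Rsad2, Cmpk2, Eif2ak2, Ifi35, Ifi44, Xaf1 and Trim30a; Gbp10 joined the higher calls and Igtp left them. Leaving out each library in turn kept 15 of the 21 calls. The number of higher calls was 2 without any 1 B2 library, without B1 library 1 or without B1 library 3. The share of all tested genes called higher in those fits is not given here. The call of Ifit2 was lost without any 1 B2 library or without B1 library 2 or 3 (adjusted p up to 0.135), and that of Igtp was lost in 7 of the 9 leave-one-out fits (up to 0.129). Ifih1 lost its call without any 1 B2 library or without B1 library 1 or 3 (up to 0.104), Sp100 without B2 library 1 or 2 or B1 library 2 or 3 (up to 0.0721), Oasl2 without B2 or B1 library 1 (up to 0.0605), and Ifi47 without B2 library 1 or B1 library 1 or 3 (up to 0.0585).

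The second comparison set the receptor-switched B2B1 cells of the peritoneal cavity beside splenic B2 cells. Interferon-stimulated genes were called in both directions. The GTPases Gbp10, Gbp2, Igtp and Irgm2, the sensors Ifih1 and Zbp1, and Bst2, Ifit1 and Dtx3l were higher in B2B1, 9 of 41 members (21.95%), close to the 21% of all tested genes called higher by limma. Irf7, Stat2, Oasl1, Samhd1, Sp100, Parp14 and Irgm1 were lower, 7 members (17.1%), against 42% of all tested genes. The median log2 difference was 0.05 over members and −0.19 over all tested genes. Ranges did not overlap for 10 members that were higher and 7 that were lower, against 24.5% and 47.7% of all tested genes. Without B2B1 library 1, 9 were higher and 19 lower (46.3%), against 18.6% and 39.5% of all tested genes. The member median was then −0.29, against −0.20 over all tested genes. A difference below 0 was then found for 29 members, against 19 with all libraries. The share of all tested genes below 0 is not given here. The sign changed for Ifit3, Oas3, Oas2, Xaf1, Dhx58, Mx1, Cmpk2, Ddx58, Rsad2 and Irf9, and of these Ifit3 and Oas3 were called, both lower. Eif2ak2 (−0.29, adjusted p = 0.0419) and Trim30a (−0.43, adjusted p = 0.0238) were also called lower only without B2B1 library 1. So were Isg15, Usp18, Ifit2, Oas1a, Oasl2, Mx2, Ifi44 and Rtp4, with values below. Median-of-ratios scaling moved the median of all genes to 0.02 and that of members to 0.27, and gave 13 higher and 5 lower members, against 31.5% and 27.3% of all tested genes. Quantile normalization gave 11 and 5, against 26.8% and 31.9%; no called member changed sign under either. Without B2 library 1, the calls of Irf7 (adjusted p = 0.0675), Parp14 (0.0616) and Ifit1 (0.0526) were lost; Ifit1 also lost it without B2 library 2 or 3 (0.0582 and 0.059), Irf7 without B2B1 library 3 (0.0527), Sp100 without B2 library 2 (0.0649) and Dtx3l without B2 library 3 (0.0517).

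The third comparison set B2B1 beside B1, which share a tissue and a strain label. In limma, 15 of 41 members were higher in B2B1 than in B1 (36.6%), against 6.93% of all tested genes, and none was lower, against 12.1%. At an unadjusted p under 0.05, 24 were higher and 1, Gbp7, was lower, against 11.8% and 22.2% of all tested genes. The higher calls were Irf7, Irf9, Zbp1, Isg15, Ifit1, Oas1a, Oas2, Oasl1, Bst2, Parp9, Dtx3l, Gbp10, Igtp, Irgm1 and Irgm2. The median log2 difference was 0.62 over members and −0.06 over all tested genes. Ranges did not overlap for 22 members that were higher and 1 that was lower, against 12% and 23.7%. Without B2B1 library 1 there were again 15 higher and none lower, with Ifit3 and Mx1 in place of Parp9 and Dtx3l, against 5.04% and 8.34% of all tested genes. The sign of Ifi44, Ifit2, Oas3, Ddx58 and Sp100, none of them called, then turned below 0. With the 6 libraries alone 7 were higher and none lower, against 4.04% and 6.14% of all tested genes, and the count of higher members was 6 with sex as a covariate. Without B1 library 1 it fell to 8, as the calls of Isg15, Ifit1, Oas1a, Oas2, Parp9, Dtx3l and Igtp were lost with adjusted p between 0.0514 and 0.106. Those of Isg15, Parp9 and Dtx3l were also lost without any 1 B2 library, that of Isg15 without any 1 B1 library, and those of Oas1a, Oas2, Parp9, Dtx3l and Igtp without B1 library 3, which left 9 (adjusted p up to 0.118 over these losses). Oas2 lost its call also without B2 library 3 or B2B1 library 3, and Parp9 and Dtx3l without B2B1 library 1 or 3. The share of all tested genes called is not given here for the fits with sex as a covariate or without a B1 library. A fall particular to the members can therefore not be told from one of the whole table. By group mean, 19 of the 42 members followed B2 > B2B1 > B1, 16 followed B2B1 > B2 > B1, 5 followed B2B1 > B1 > B2, and 2, Gbp2 and Gbp7, followed B1 > B2B1 > B2. Without B2B1 library 1, 24 members followed B2 > B2B1 > B1 and 7 followed B2B1 > B2 > B1, and 6 of the 16 kept that order. How often each order occurs over all tested genes is not given here.

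**Figure D2:**
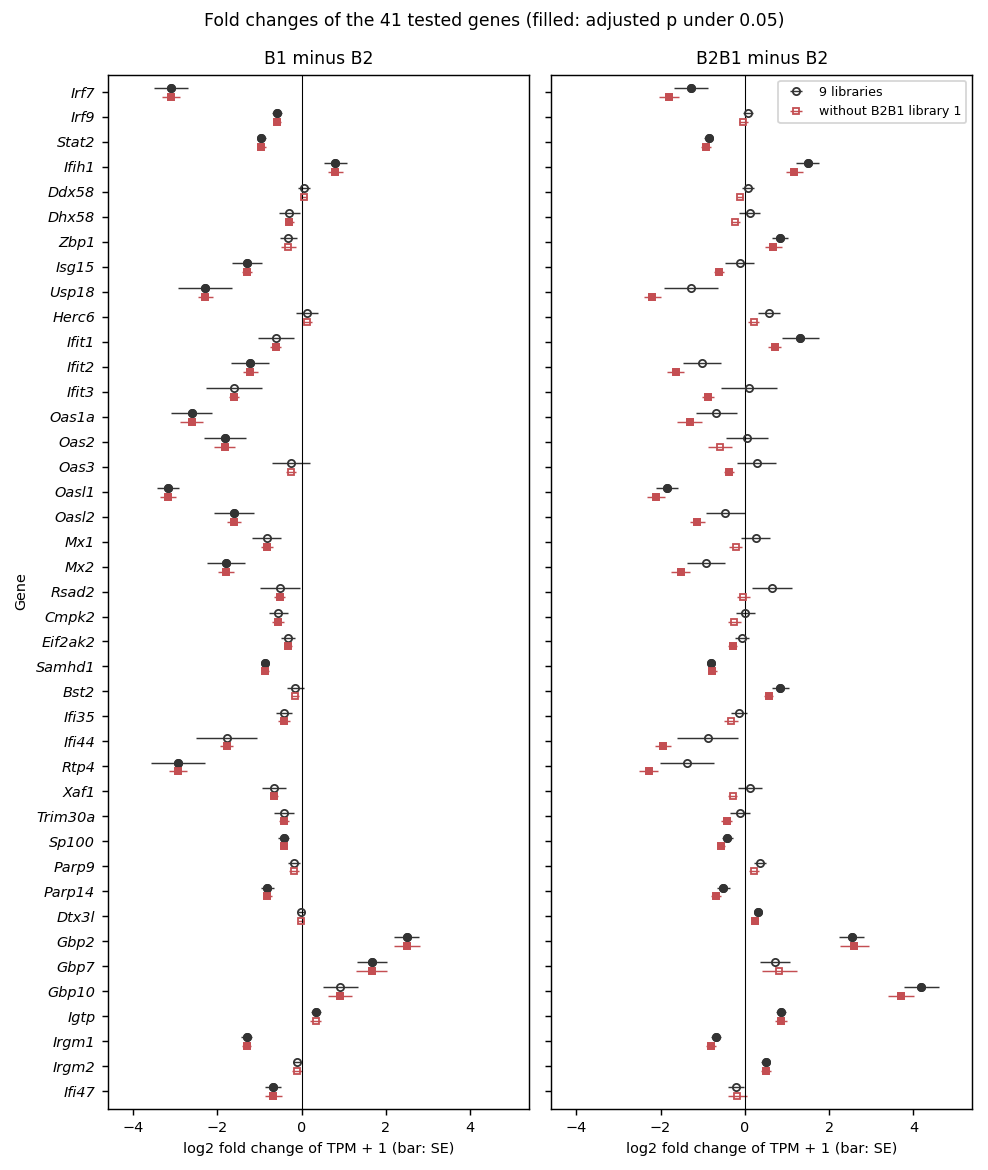
Log2 difference of each of the 41 tested members on the log2(TPM + 1) scale (horizontal axis) for B1 minus B2 and B2B1 minus B2; circles use 9 libraries, squares leave out B2B1 library 1, bars are standard errors and filled symbols passed an adjusted p of 0.05. In B1 against B2, 17 genes are called on the lower side and 4 on the higher side.

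Irf7, Irf9 and Stat2 carry the signal to the promoter. Irf7 (chr7:141262706-141266481), the factor that amplifies interferon production, was at 75.9, 59.8 and 62.7 TPM in the 3 B2 libraries, 56.1, 12.9 and 25.6 TPM in B2B1 and 6.77, 6.67 and 6.77 TPM in B1. The 3 groups did not overlap, and the B1 libraries were the most alike. On the log2(TPM + 1) scale B1 differed from B2 by −3.11 ± 0.41 (± SE, limma adjusted p = 0.000237) and B2B1 from B2 by −1.27 ± 0.41 (adjusted p = 0.0216). B2B1 lay above B1 by 1.84 ± 0.41 (adjusted p = 0.0153), and by 1.31 ± 0.24 without B2B1 library 1. Stat2 (chr10:128270559-128292849), a subunit of the ISRE-binding complex, had 96.7, 101 and 99 TPM in B2, 58.8, 50.4 and 52.9 TPM in B2B1 and 49.99, 59 and 43.4 TPM in B1. It was lower in both peritoneal groups, with log2 differences from B2 of −0.96 ± 0.11 in B1 and −0.86 ± 0.11 in B2B1 (adjusted p = 8.83e-05 and 0.000115). Irf9, the DNA-binding subunit, had 135, 121 and 128 TPM in B2, 156, 111 and 139 TPM in B2B1 and 82.9, 90.6 and 81.2 TPM in B1. It was lower in B1 than in B2 (−0.59 ± 0.11, adjusted p = 0.00236) and higher in B2B1 than in B1 (0.65 ± 0.11, adjusted p = 0.00531).

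**Figure D3:**
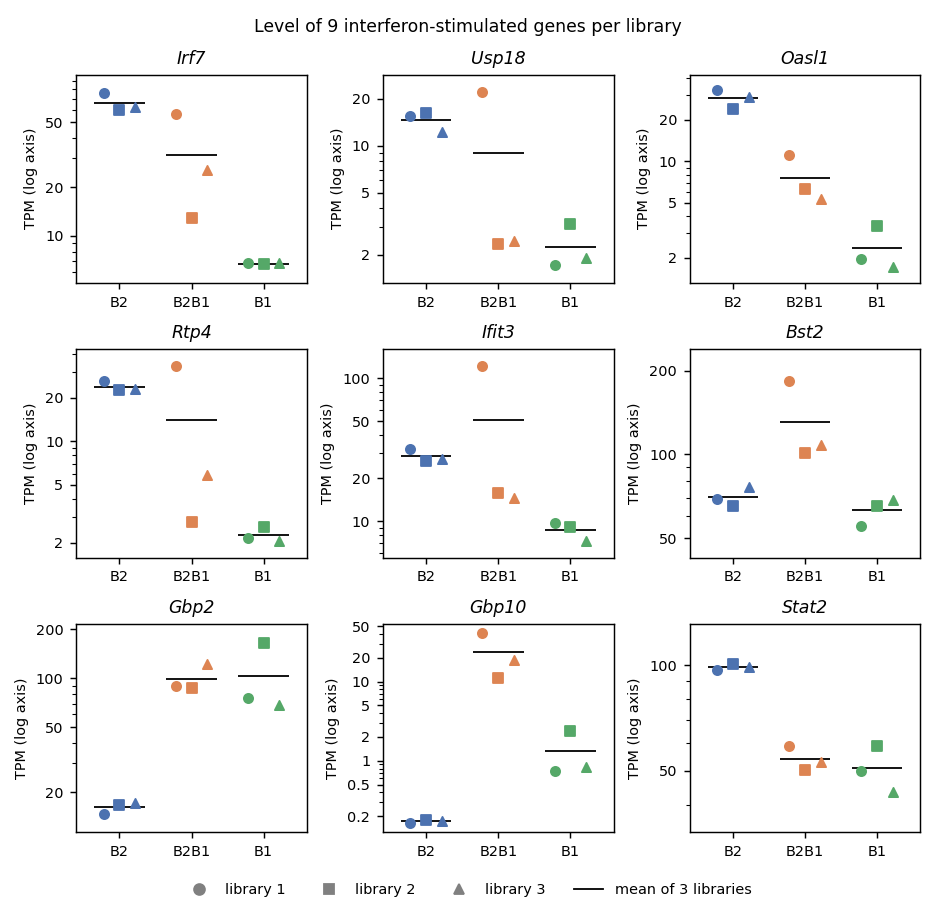
TPM (log axis) of 9 members in each library; each panel is 1 gene, symbols are libraries 1, 2 and 3 of B2, B2B1 and B1, and the bar is the mean of 3 libraries. In the Irf7 panel the 3 B1 libraries lie between 6.67 and 6.77 TPM, below every B2B1 and B2 library.

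The sensors detect viral RNA or DNA. Ifih1, the receptor for long double-stranded RNA, was low in B2, at 1.75, 2.04 and 1.87 TPM, and reached 11.4, 5.49 and 5.56 TPM in B2B1 and 5.46, 2.98 and 3.95 TPM in B1. Both peritoneal groups lay above B2, by 1.49 ± 0.27 for B2B1 (adjusted p = 0.00107) and 0.80 ± 0.27 for B1 (adjusted p = 0.0311). Zbp1, which binds nucleic acid in the Z form and triggers cell death, was at 52.9, 53.8 and 52.6 TPM in B2, 117, 69.2 and 106 TPM in B2B1 and 43.4, 51.3 and 34.4 TPM in B1. It was higher in B2B1 than in either other group, by 0.83 ± 0.19 over B2 (adjusted p = 0.00505) and by 1.14 ± 0.19 over B1 (adjusted p = 0.00482). Ddx58, the receptor for RNA with a triphosphate end, was between 60.4 and 93.8 TPM in all libraries, and Dhx58, its regulator, between 21.4 and 53.9 TPM. Neither was called in any comparison with all 9 libraries, and the highest value of both was that of B2B1 library 1.

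The Isg15 system attaches and removes the ubiquitin-like protein Isg15. Isg15 was at 30.7, 28.3 and 25 TPM in B2, 51.4, 18.3 and 17.4 TPM in B2B1 and 11.5, 11.5 and 9.38 TPM in B1. It was lower in B1 than in B2 (−1.30 ± 0.34, adjusted p = 0.0117), and B2B1 library 1 lay above every B2 library while libraries 2 and 3 lay below them. B2B1 differed from B2 by −0.13 ± 0.34 (adjusted p = 0.765) with all libraries and by −0.62 ± 0.12 (adjusted p = 0.0027) without library 1. Usp18 (chr6:121245906-121270917), the protease that removes Isg15 and also blocks the type I receptor, was at 15.6, 16.3 and 12.3 TPM in B2, 22, 2.34 and 2.45 TPM in B2B1 and 1.72, 3.14 and 1.9 TPM in B1. B2B1 library 1 was above every B2 library, while libraries 2 and 3 lay within the B1 range. B1 differed from B2 by −2.29 ± 0.64 (adjusted p = 0.0147), and B2B1 from B2 by −1.28 ± 0.64 (0.108) with all libraries and by −2.20 ± 0.20 (5.51e-05) without B2B1 library 1. Herc6, the mouse ligase for Isg15, was at 14.3 to 17.8 TPM in B2, 40.2, 16.1 and 20.3 TPM in B2B1 and 16.8 to 17.6 TPM in B1. It was not called, except higher in B2B1 than in B2 under median-of-ratios scaling (adjusted p = 0.0278), under quantile normalization (adjusted p = 0.0392) and without B2B1 library 2.

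Ifit proteins bind viral RNA and block its translation. The highest value of all 3 members was that of B2B1 library 1. Ifit1 was at 5.07, 4.66 and 4.64 TPM in B2, 32.7, 7.29 and 9.79 TPM in B2B1 and 2.34, 3.09 and 2.89 TPM in B1. It was higher in B2B1 than in B2 (1.32 ± 0.43, adjusted p = 0.0235; 0.71 ± 0.15 without library 1, adjusted p = 0.00453) and than in B1 (1.94 ± 0.43, adjusted p = 0.0152). Ifit3 (chr19:34583531-34588731) was at 31.9, 26.5 and 27.4 TPM in B2, 123, 15.7 and 14.5 TPM in B2B1 and 9.78, 9.15 and 7.23 TPM in B1. B1 was below B2 without overlap (−1.61 ± 0.67, adjusted p = 0.0703; adjusted p = 2e-05 without B2B1 library 1). Its difference between B2B1 and B2 changed sign, from 0.11 ± 0.67 (adjusted p = 0.9) to −0.88 ± 0.14 without B2B1 library 1 (adjusted p = 0.000863). Ifit2 was at 14.3, 14.5 and 12.8 TPM in B2, 16.3, 3.97 and 3.55 TPM in B2B1 and 7.7, 4.83 and 4.16 TPM in B1, and was lower in B1 (−1.22 ± 0.45, adjusted p = 0.048). Its B2B1 difference from B2 was −1.02 ± 0.45 (adjusted p = 0.0747), and −1.64 ± 0.21 without B2B1 library 1 (adjusted p = 0.00029).

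**Figure D4:**
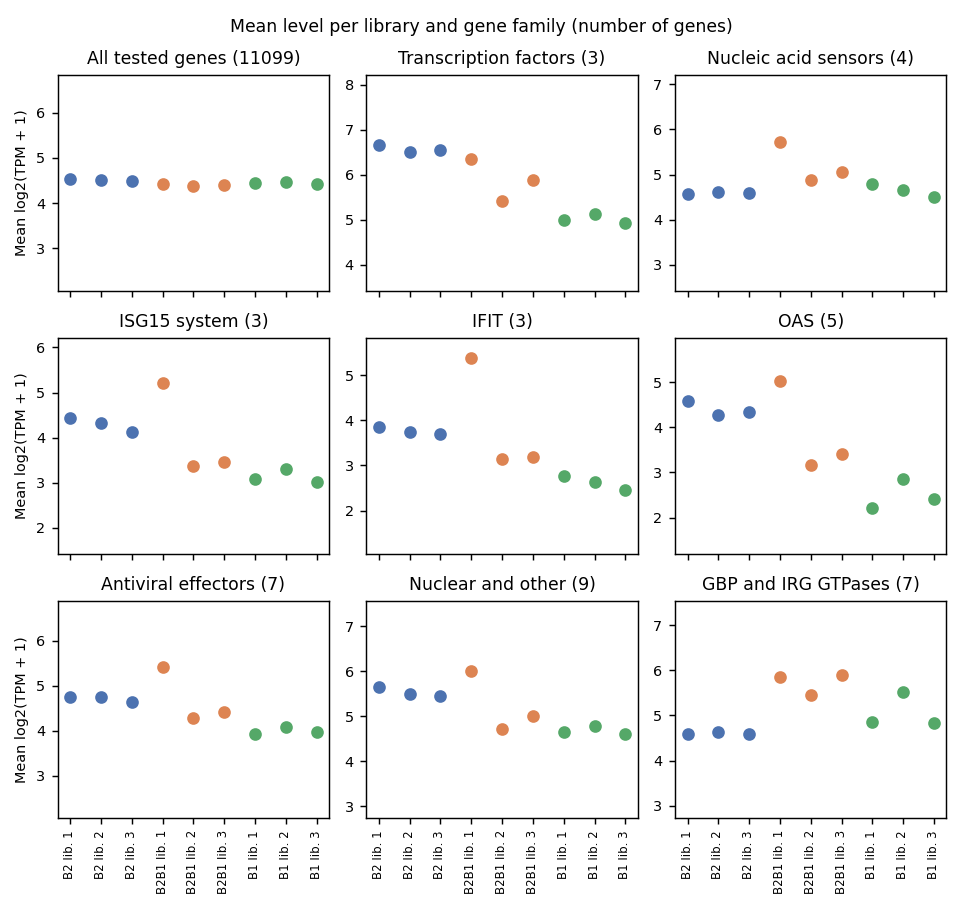
Mean log2(TPM + 1) of the members of each role group in each library; each panel is a role group with its number of genes and each point is 1 library. All tested genes lie between 4.37 and 4.53 in every library, the Ifit mean is 5.38 in B2B1 library 1 and 3.14 and 3.19 in the other two, and the GTPase mean is 5.45 to 5.89 in B2B1 against 4.59 to 4.63 in B2.

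Oligoadenylate synthetases make the second messenger that activates RNase L. Oasl1 (chr5:114923240-114937915), which has no such activity and restrains Irf7 translation, was at 32.7, 24.1 and 29.3 TPM in B2, 11.1, 6.31 and 5.34 TPM in B2B1 and 1.95, 3.39 and 1.71 TPM in B1. The 3 groups did not overlap. The log2 difference was −3.17 ± 0.26 for B1 minus B2 (adjusted p = 1.53e-05), −1.84 ± 0.26 for B2B1 minus B2 (0.00028) and 1.33 ± 0.26 for B2B1 minus B1 (0.00907). Oas1a was at 39, 31 and 32.6 TPM in B2, 51.5, 10.6 and 16.3 TPM in B2B1 and 3.24, 7.66 and 4.09 TPM in B1, and Oas2 at 30.5, 22.8 and 24.1, 67.1, 12.4 and 22.1 and 4.92, 9.21 and 5.91 TPM. Both were lower in B1 than in B2 (−2.61 ± 0.49 and −1.83 ± 0.50; adjusted p = 0.00198 and 0.0131). Oasl2 was at 9.60 to 11.3 TPM in B2 and 1.91 to 3.48 TPM in B1 (−1.61 ± 0.47, adjusted p = 0.0182), with 19.7 TPM in B2B1 library 1 and 4.17 and 4.22 TPM in the other two. Without B2B1 library 1, the B2B1 difference from B2 went from −0.68 ± 0.49 to −1.31 ± 0.30 in Oas1a (adjusted p = 0.256 and 0.00604) and from −0.46 ± 0.47 to −1.13 ± 0.18 in Oasl2 (adjusted p = 0.414 and 0.00108). Oas3 was at 11.3 to 14.2 TPM in B2, 39.4, 9.33 and 8.92 TPM in B2B1 and 9.28 to 10.8 TPM in B1, and was called in no comparison. Without B2B1 library 1 its B2B1 to B2 difference went from 0.28 ± 0.46 to −0.39 ± 0.12 (adjusted p = 0.0263).

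The antiviral effectors act on entry, replication or release. Samhd1 (chr2:157097533-157135265), which depletes deoxynucleotides, was the most abundant of all members, at 388, 369 and 418 TPM in B2, 217, 199 and 259 TPM in B2B1 and 214, 212 and 213 TPM in B1. It was lower in both peritoneal groups (−0.87 ± 0.093 in B1 and −0.80 ± 0.093 in B2B1, adjusted p = 6.75e-05 and 7.93e-05). Bst2 (chr8:71534255-71537456), a membrane tether that holds virus particles, was at 69.1, 65.3 and 76.6 TPM in B2, 184, 101 and 108 TPM in B2B1 and 55.3, 65.1 and 68.8 TPM in B1. B2B1 lay above B2 by 0.84 ± 0.20 and above B1 by 0.996 ± 0.20 (adjusted p = 0.00564 and 0.0105), and B1 and B2 overlapped. Mx2, a dynamin-like GTPase annotated as a polymorphic pseudogene, was at 7.18 to 8.81 TPM in B2 and 1.06 to 2.53 TPM in B1 (−1.80 ± 0.45, adjusted p = 0.00858). Its B2B1 difference from B2 was −0.92 ± 0.45 (adjusted p = 0.101), and −1.53 ± 0.22 without B2B1 library 1 (adjusted p = 0.000616). Mx1 was at 14.8 to 20.1 TPM in B2 and 8.28 to 11.1 TPM in B1 without overlap, Rsad2 (viperin) at 2.29 to 2.81 and 1.25 to 1.65 TPM, Cmpk2, a mitochondrial nucleotide kinase, at 11.1 to 12.7 and 6.84 to 8.32 TPM, and Eif2ak2 (PKR) at 35.5 to 41.97 and 27.9 to 33.3 TPM. None of these 4 was called in the unweighted fit of all 9 libraries. Library weights called Mx1 and Cmpk2 lower in B1 than in B2, and Mx1 was called higher in B2B1 than in B1 under median-of-ratios scaling (adjusted p = 0.0462) and quantile normalization (adjusted p = 0.0477).

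Among the nuclear and other members, Rtp4 (chr16:23520291-23614222), a chaperone that restrains the interferon response, was at 26, 22.7 and 22.9 TPM in B2, 33.3, 2.76 and 5.89 TPM in B2B1 and 2.15, 2.55 and 2.05 TPM in B1. B1 was lower than B2 (log2 difference −2.94 ± 0.64, adjusted p = 0.00451). The B2B1 libraries split, with library 1 above B2 and libraries 2 and 3 well below it: the difference from B2 was −1.37 ± 0.64 (0.0916) with it and −2.28 ± 0.23 (8.74e-05) without it. Ifi44 showed the same split at a lower level, at 4.23, 3.38 and 2.76 TPM in B2, 9.3, 0.176 and 0.125 TPM in B2B1 and 0.329, 0.289 and 0.233 TPM in B1. Its B2B1 difference from B2 was −0.89 ± 0.72 (adjusted p = 0.308), and −1.94 ± 0.18 without B2B1 library 1 (adjusted p = 6.22e-05). Parp14, an ADP-ribosyltransferase, was at 82.9, 70.4 and 72.6 TPM in B2, 67.2, 41.3 and 51.5 TPM in B2B1 and 43, 44.6 and 39.4 TPM in B1, lower in B1 (−0.81 ± 0.15, adjusted p = 0.002) and in B2B1 (−0.51 ± 0.15, adjusted p = 0.0164). Sp100, a nuclear body protein, was lower in both peritoneal groups (−0.43 ± 0.13 and −0.42 ± 0.13; adjusted p = 0.0221 and 0.0197), calls that median-of-ratios scaling ended (adjusted p = 0.104 and 0.211); it also ended the B2B1 to B2 call of Parp14 (adjusted p = 0.108). Dtx3l and Parp9, which act as a pair, were at 37.3 to 54.4 and 38.4 to 73.1 TPM over all libraries. Both were higher in B2B1 than in B1 (0.31 ± 0.086 and 0.54 ± 0.14; adjusted p = 0.0358 and 0.0315). Ifi35, Xaf1 and Trim30a were called in no comparison in the unweighted fit of all 9 libraries, and library weights called Ifi35 and Xaf1 lower in B1 than in B2.

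The GTPases target membranes around intracellular microbes. Gbp2 (chr3:142620602-142638008) was at 14.7, 16.6 and 17.1 TPM in B2, 89.1, 86.7 and 122 TPM in B2B1 and 76.2, 166 and 68.5 TPM in B1. Every peritoneal library lay above every B2 library, by 2.53 ± 0.29 for B2B1 and 2.49 ± 0.29 for B1 (adjusted p = 8.17e-05 and 0.00013). Its neighbour Gbp7 (chr3:142530342-142550149) was at 18.4, 22.9 and 17, 28.5, 33.6 and 35.7 and 46.3, 127 and 42.2 TPM, and was higher in B1 than in B2 (1.66 ± 0.36, adjusted p = 0.00401). B1 library 2 held the highest value of both, and without it the B1 differences from B2 were 2.10 ± 0.15 for Gbp2 (adjusted p = 1.72e-05) and 1.16 ± 0.14 for Gbp7 (adjusted p = 0.000271). The B2B1 difference of Gbp7 from B2 was 0.72 ± 0.36 (adjusted p = 0.104), and it passed without that library (adjusted p = 0.00115); from B1 it was −0.94 ± 0.36 (adjusted p = 0.1). Gbp10 (chr5:105215699-105239533) was near 0 in B2, at 0.163, 0.181 and 0.174 TPM, and was at 40.9, 11.1 and 18.4 TPM in B2B1 and 0.752, 2.37 and 0.828 TPM in B1. B2B1 lay above B2 by 4.19 ± 0.42 and above B1 by 3.28 ± 0.42 (adjusted p = 3.24e-05 and 0.00114). Its mean was 0.173 TPM in B2, 23.5 TPM in B2B1 and 1.32 TPM in B1. It thus passed the filter on low values only through B2B1, the group in which it was called higher. In the GENCODE annotation its transcripts share 88.8% of their 31-base words with other genes (84.2% with Gm43302), so its level is uncertain; how the deposited values split such reads was not established. Sharing was also found for Oas1a (68.8%, mostly Oas1g), Ifit3 (61.8%, Ifit3b), Herc6 (25.0%) and Igtp (15.9%, Irgm2). Gbp3, which did not enter the tests, was at 0, 1.69 and 0 TPM in B2, 0, 0.788 and 0.577 TPM in B2B1 and 0, 0.772 and 0 TPM in B1.

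The immunity-related GTPases differed in direction between B2B1 and B2. Igtp (chr11:58199556-58207591) was at 43.8, 44.1 and 47.2 TPM in B2, 83.7, 70.8 and 95.8 TPM in B2B1 and 53, 65.9 and 52.7 TPM in B1, higher in B2B1 than in B2 (0.86 ± 0.12, adjusted p = 0.00025) and in B1 than in B2 (0.33 ± 0.12, adjusted p = 0.0449), where 7 of the 9 leave-one-out fits lost the call. Irgm2 (chr11:58199618-58222782) was at 29.4, 27 and 27.9, 39.3, 34.8 and 46.3 and 25.1, 28.2 and 24.6 TPM, higher in B2B1 than in B2 and B1 (0.49 ± 0.10 and 0.60 ± 0.10; adjusted p = 0.00297 and 0.00527). The annotated spans of Igtp and Irgm2 overlap on the same strand, and reads of one may be counted for the other. Irgm1 (chr11:48861968-48871683), which is known to restrain the other GTPases of the family, was at 115, 108 and 109 TPM in B2, 80.3, 53.8 and 73.3 TPM in B2B1 and 44.6, 44.9 and 42.8 TPM in B1, with no overlap among the 3 groups. It was lower in B1 than in B2 (−1.31 ± 0.13, adjusted p = 3.92e-05), lower in B2B1 than in B2 (−0.69 ± 0.13, 0.00127), and higher in B2B1 than in B1 (0.62 ± 0.13, 0.0109). Ifi47 was lower in B1 than in B2 (−0.68 ± 0.19, adjusted p = 0.0162).

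A further 70 interferon-induced genes were listed to set beside the members, of which 60 were in the table and 54 were tested. Limma called 6 higher and 27 lower in B1 than in B2 (11.1% and 50%), against 18% and 33.9% of all tested genes. In B2B1 against B2 it called 15 and 19 (27.8% and 35.2%), near the 21% and 42% of all tested genes, and in B2B1 against B1 16 and 1 (29.6% and 1.85%), against 6.93% and 12.1%. With median-of-ratios scaling these became 9 and 20, 19 and 16, and 19 and 1. That scaling also moved the whole table, to 31.5% and 27.3% of all tested genes in B2B1 against B2. The shares in the other comparisons under it are not given here. Sp140, a nuclear body protein, was higher in both peritoneal groups, at 148, 135 and 127 TPM in B2, 709, 505 and 588 TPM in B2B1 and 366, 344 and 364 TPM in B1 (1.39 ± 0.11 in B1 and 2.12 ± 0.11 in B2B1). Nlrc5, the activator of MHC class I genes, was at 43.6, 41.3 and 42.8 TPM in B2, 131, 132 and 139.8 TPM in B2B1 and 30.0, 39.6 and 24.7 TPM in B1, so that the 3 B2B1 libraries, library 1 included, lay together above all others (1.63 ± 0.14 over B2, adjusted p = 1.24e-05; 2.08 ± 0.14 over B1, adjusted p = 8.46e-05). Ifitm2, which blocks virus entry, was at or below 0.612 TPM in B2, 7.68, 8.51 and 8.49 TPM in B2B1 and 3.45, 3.92 and 1.3 TPM in B1. Uba7, the activating enzyme for Isg15, was lower in both peritoneal groups (−0.95 ± 0.068 and −0.77 ± 0.068), as were Gbp4 (−1.70 ± 0.14 and −1.37 ± 0.14) and the histone methyltransferase Setdb2 (−0.93 ± 0.096 and −1.01 ± 0.096).

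Of the genes that act at or next to the receptor, 9 were tested. In B1 against B2, 1 was higher and 6 lower (11.1% and 66.7%), against 18% and 33.9% of all tested genes. In B2B1 against B2 these were 2 and 5 (22.2% and 55.6%), against 21% and 42%. In B2B1 against B1 they were 4 and 2 (44.4% and 22.2%), against 6.93% and 12.1%. Both chains of the type II receptor were lower in the peritoneal groups. Ifngr1 was at 128, 119 and 125 TPM in B2, 45.9, 47.6 and 45.9 TPM in B2B1 and 55.5, 52.8 and 53.9 TPM in B1 (−1.18 ± 0.054 and −1.40 ± 0.054 against B2; adjusted p = 3.9e-07 and 1.4e-07), and Ifngr2 at 117, 115 and 113, 63.4, 70.0 and 64.6 and 49.1, 47.9 and 47.9 TPM. For type I, Ifnar1 was lower in both groups (−0.46 ± 0.067 and −0.33 ± 0.067), while Ifnar2 was lower in B1 (−0.33 ± 0.12, adjusted p = 0.0446) and had a B2B1 difference from B2 of 0.094 ± 0.12 (adjusted p = 0.521). The kinase Tyk2 was higher in both groups (0.48 ± 0.093 and 0.72 ± 0.093), and Jak2 was lower in B2B1 than in either other group (−0.78 ± 0.13 and −0.74 ± 0.13).

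Of 8 tested interferon regulatory and NF-kB factors outside the member list, 2 were higher and 2 lower in B1 than in B2 (25% and 25%). In B2B1 against B2, 1 was higher and 4 lower (12.5% and 50%). Over all tested genes limma called 18% higher and 33.9% lower in B1 than in B2, and 21% and 42% in B2B1 against B2. Irf8 was at 323, 333 and 333 TPM in B2, 7.16, 26.9 and 42.5 TPM in B2B1 and 72.4, 58.9 and 76.3 TPM in B1, with B2B1 library 1 the lowest of all 9 (−2.24 ± 0.49 and −3.94 ± 0.49 against B2; adjusted p = 0.00449 and 0.000127). Irf4 ran the opposite way (0.63 ± 0.092 and 1.07 ± 0.092), Irf3 was lower in both (−0.42 ± 0.059 and −0.41 ± 0.059), and Irf1 and Irf5 passed in no comparison with all 9 libraries. Without B2B1 library 1, 2 factors were higher and 5 lower in B1 than in B2 (25% and 62.5%), Irf1 among the lower. Over all tested genes these shares were 18.4% and 34.1%. Of 15 tested sensing genes, 4 were higher and 5 lower in B1 (26.7% and 33.3%), and 5 and 7 in B2B1 (33.3% and 46.7%). The adaptor Ticam1 (1.65 ± 0.11 and 1.88 ± 0.11) and the DNA receptor Tlr9 (0.64 ± 0.11 and 1.01 ± 0.11) were higher, Tmem173 (STING; −1.62 ± 0.15 and −1.86 ± 0.15) and Tlr3 (−2.71 ± 0.27 and −2.72 ± 0.27) were lower, and Tlr7 was higher in B2B1 than in B2 (0.76 ± 0.21, adjusted p = 0.0107). Of 9 tested inhibitors, 3 were higher and 2 lower in B1 (33.3% and 22.2%), and 4 and 4 in B2B1 (44.4% and 44.4%). The DNase Trex1 was higher in both (1.41 ± 0.07 and 1.31 ± 0.07), while Tnfaip3 (A20) was lower in B1 (−0.72 ± 0.081) and higher in B2B1 (0.37 ± 0.081). Of the interferon genes themselves, Ifnb1, Ifna1, Ifna2, Ifna4, Ifna5 and Ifne were listed at 0 in all 9 libraries, and none of the 8 reached the tests. Ifnk was at 0 in all B2 libraries, 0.319, 0.706 and 0.251 TPM in B2B1 and 0.275, 0 and 0.576 TPM in B1. Ifng was at 0.09 TPM in B2 library 3 and at 0 in the others.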

How the data were processed

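RNA was polyA-selected, isolated with the RNeasy micro kit and made into libraries with the TruSeq RNA Sample Kit v2, per the labels' protocols. The authors deposited TPM per gene (kallisto, CASAVA 1.8.2 and build mm10 per the submitters' processing notes; kallisto version and transcript set: not given in the sources used here). TPM keeps no depth, so the depth behind a value is unknown and no counting interval is given. The deposited list of signature genes was not used. Here, log2(TPM + 1) was tested in limma 3.58.1 (R 4.3.3; eBayes with trend, 6 residual degrees of freedom) in one model over 9 libraries, keeping genes whose mean reached 1 TPM, two-sided, with Benjamini-Hochberg adjustment over all 11099 tested genes within each comparison. A log2 difference on this scale understates the change of genes near or below 1 TPM. An exact permutation test of 3 against 3 libraries cannot go below 0.1. Groups came from the cell type label. The procedure was tested on simulated data. Values in every library were to be given for up to 3 called members per role group, for members against their group's direction and for Gbp3; from the other lists, for up to 6 genes with the smallest adjusted p, plus interferon receptors and a few factors; 1 gene so chosen is not reported here. Values of Ifit3, Ifi44, Herc6, Oas3 and the remaining GTPases were added after they were seen. Members and lists were chosen with earlier results of these data known. Gene spans are GENCODE M21 (GRCm38, the same build as mm10). None of 36 library pairs was identical. Alternatives changed the pseudocount, filter, scaling, libraries, variance model and covariates.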

Additional observations from a re-analysis of the deposited data

How the results depend on the processing

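Calls of members that held in every alternative numbered 15 of 21 for B1 against B2, 11 of 16 for B2B1 against B2 and 5 of 15 for B2B1 against B1 (Gbp10, Irf9, Irgm1, Irgm2 and Zbp1). For B1 against B2, the 4 higher members became 2 with no filter on low values, and the 17 lower became 27 with only the 6 libraries compared and 28 without both B2B1 replicate 1 and B1 replicate 2, a setting chosen after seeing the data; the member median became −0.69 with a pseudocount of 0.1, −0.42 with 5 and −0.43 with median-of-ratios scaling. For B2B1 against B2, the 7 lower members became 11 with library weights and 21 without both libraries, and the 20 lower signalling and sensing genes became 11 with median-of-ratios scaling. For B2B1 against B1, the 15 higher members became 7 with the 6 libraries and 6 with sex as a covariate, the 16 other interferon-induced genes 8 and 7, and the 7 higher signalling genes 4 and 4. The 1 lower other gene became 2 with library weights and without both libraries, and the 5 lower signalling genes became 1 with median-of-ratios scaling, quantile normalization, the 6 libraries or sex, and 3 with the replicate block. With ISRE or GAS matches only in the 100 bases before the start, the member shares were 34.4% and 12.5%, against 1.14% and 3.00% of all promoters. Reversals of sign in which a call was made, before or after, were those for B2B1 against B2 in Ifit3 (−0.88 without B2B1 replicate 1, alone or with B1 replicate 2), Oas3 (−0.39 in both settings) and Xaf1 (−0.29 without both libraries), and for B2B1 against B1 in Socs1 (0.76 without both). The cause of these changes was not tested.

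Leaving out each library in turn gave, for B1 against B2, 2 to 5 higher and 13 to 28 lower members (median −0.64 to −0.54), 4 to 7 and 21 to 29 other genes and 7 to 10 and 13 to 18 signalling genes. For B2B1 against B2 it gave 7 to 11 and 5 to 19 members (median −0.29 to 0.20), 12 to 17 and 16 to 22 other genes and 10 to 12 and 17 to 19 signalling genes. For B2B1 against B1 it gave 8 to 20 and 0 members (median 0.38 to 0.82), 11 to 17 and 1 to 2 other genes and 4 to 8 and 1 to 4 signalling genes. Over the same fits the B2B1 to B2 difference ran from −0.88 to 0.62 in Ifit3, −0.39 to 0.63 in Oas3 and −0.29 to 0.37 in Xaf1, and the B2B1 to B1 difference of Socs1 from −0.72 to 0.29. Deviations from the group mean correlated between −0.06 and 0.12 for same-numbered libraries and between −0.21 and 0.13 for differently numbered ones. The labels do not say whether replicate numbers pair the libraries, and correlations this weak cannot settle it. With the replicate block, members called higher and lower were 3 and 19, 9 and 8, and 13 and 0 in the 3 comparisons. Shares of all tested genes are given above for only some of the settings in this section. Without such a share, a change of the members cannot be told apart from one of the whole table.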
